A study of Rattus norvegicus with 8 samples.

Results

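The aldo-keto reductases described here are 9 genes of rat kidney cortex: Akr1a1, Akr1b1, Akr1b7, Akr1b8, Akr1c12l1, Akr1c13, Akr1c14, Akr7a2 and Akr7a3. They were taken from a list of names, and each was represented by the non-control array probe whose RefSeq accession maps to that gene, out of 30367 different probes on the array. Signal brightness was the measured value the rule used: the probes were chosen by being well above background on 4 or more of the 8 arrays, and the brightest probe of a gene was to lead. All 9 genes had 1 probe each, so no choice between probes arose, and all 9 passed, the dimmest being the probe of Akr1c14 on 6 arrays and that of Akr1b7 on 7 arrays. Among family genes outside the list, the probes of Akr1c3, Akr1d1 and Kcnab3 were well above background on 0 arrays.

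RNA came from cortical kidney slices of 4 male and 4 female adult rats of the strain RCCHanTMWIST, a Wistar line, without any treatment. The Cy3-labelled RNA of each slice had an array of its own, and all 8 arrays lay on 1 slide. The comparison asks which transcripts differ between the sexes in this tissue. Values are log2 signals relative to the 75th percentile of the signals on the same array, so that 0 means a signal equal to that percentile. Differences are log2 fold-changes of male minus female, and levels of different probes are not compared because probes differ in how brightly they bind.

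Aldo-keto reductases are NADPH-dependent enzymes of the cytosol that share a barrel-shaped fold and reduce aldehydes and ketones to alcohols. Their substrates include sugars, steroids, prostaglandins and the reactive aldehydes of lipid peroxidation and of foreign compounds. Kidney is among the tissues richest in them, and the rodent genes of the Akr1b and Akr1c branches lie in clusters of closely related copies.

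The 9 genes did not differ in a common direction. Akr1c12l1 and Akr1c13 were higher expressed in males, Akr1b7 and Akr1c14 were higher expressed in females, and the other 5 did not pass both thresholds, an adjusted p (limma, Benjamini-Hochberg over all probes tested) below 0.05 and a change of at least 2-fold. These 2 male-dominant and 2 female-dominant genes stand beside 0.798% of the 23425 tested probes that passed in the male direction and 1.09% in the female direction (1.89% in either). The adjusted p alone was passed by 3 members in the male and 2 in the female direction, against 3.39% and 4.67% of all tested probes (8.06% in either). The ranges of males and females did not overlap for 7 of the 9, against 18.5% of all tested probes. The genes were picked with earlier results known, so their share is a description of the list. The median difference of all tested probes was -0.04, and no member changed direction under another scaling. The number of arrays limits the precision, and for a single probe the smallest p of the two-sided exact permutation test over the 70 assignments of the 8 rats is 0.0286. In slices of whole cortex, fewer cells of a type and less RNA per cell cannot be told apart.

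**Figure D1:**
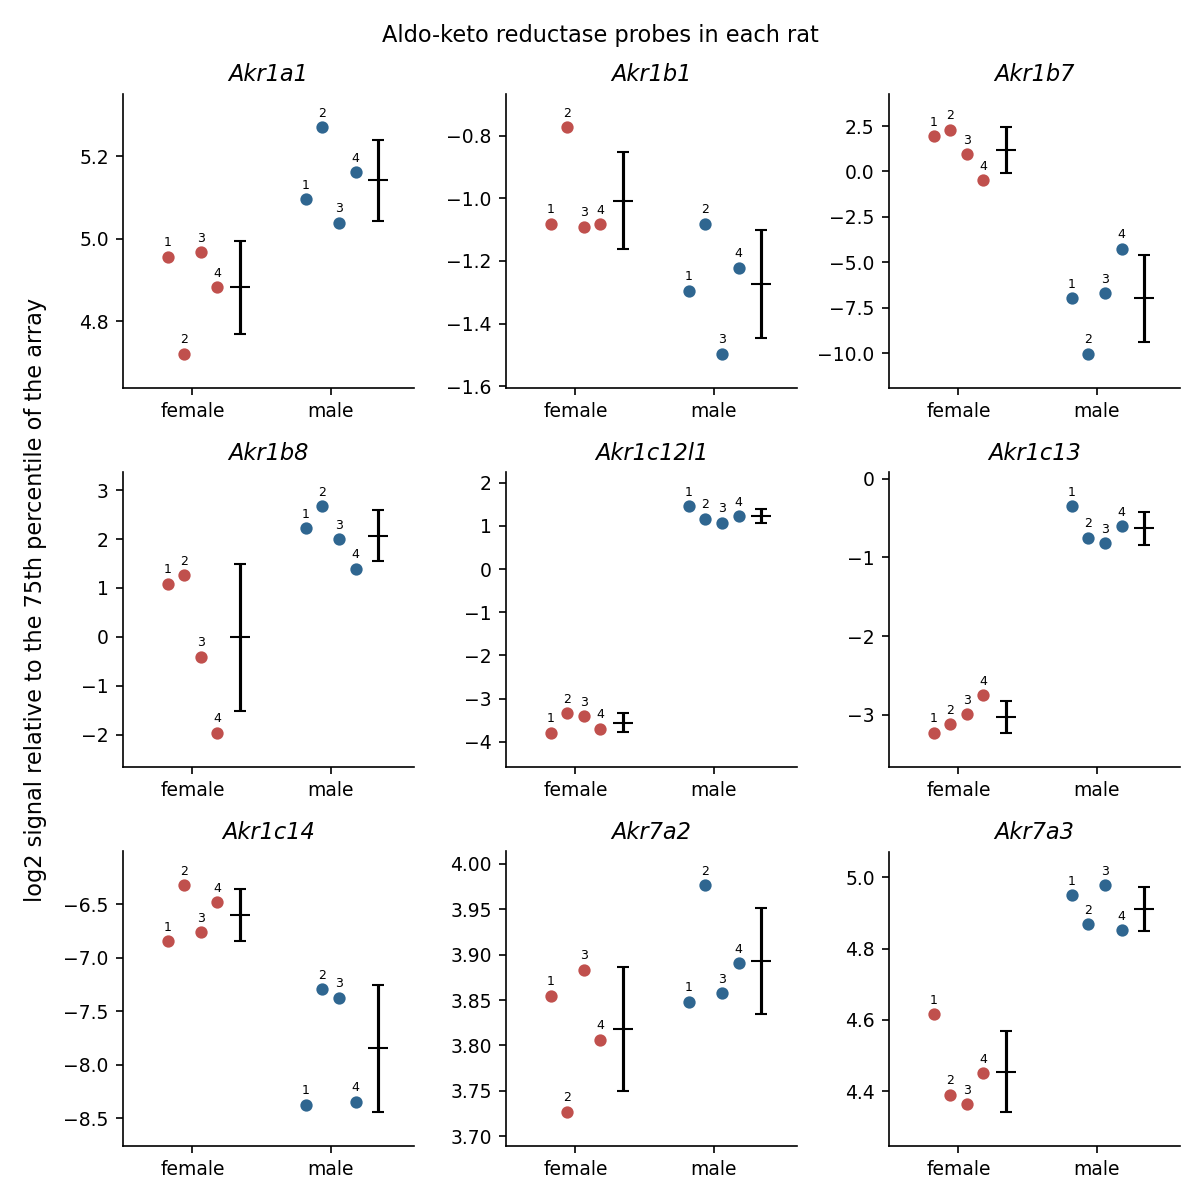
Log2 signal relative to the 75th percentile of the array (vertical axis, a separate scale in each panel) for the 9 aldo-keto reductases in each rat. Red points are the 4 females and blue points the 4 males, numbered by replicate, with the mean and SD of each sex in black; the sexes overlap for Akr1b1 and Akr7a2 alone.

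All 9 of the proximal tubule marker genes checked were well above background on all 8 arrays, and 0 of them passed both thresholds. Their summed signals (in units of the 75th percentile) overlapped, at 216 to 251 in females and 223 to 236 in males. Single markers differed in both directions. The adjusted p alone was passed by Cubn, higher in females (log2 fold-change -0.59, limma adjusted p = 0.00452), and by Slc22a6, higher in males (0.38, 0.0153). All females were also above all males for Slc7a13 (-0.897, limma adjusted p = 0.0639) and Slc5a2 (-0.13). All males were above all females for Slc22a8 (0.22) and Slc5a12 (0.25). Lrp2, Aqp1 and Slc34a1 overlapped. Urothelial and inner medullary markers summed to 0.0521 to 0.0964 in females and 0.0549 to 0.0774 in males, with the probes of Slc14a2 and Upk2 well above background on 0 arrays. The summed signals of some other marker lists were higher in every female than in every male: 57.7 to 65.3 against 47.5 to 55.3 for the thick ascending limb, 12.2 to 13.0 against 10.5 to 11 for the glomerulus and 0.486 to 0.936 against 0.135 to 0.179 for liver. Their part in the values below was not tested, except where a measurement is given. The share of probes well above background was 73.8% to 79.1% over the female arrays and 73.9% to 78.6% over those of males.

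Akr1c12l1 belongs to the Akr1c branch, whose members reduce or oxidise hydroxyl and keto groups of steroids and related compounds. Its log2 level was -3.79, -3.34, -3.41 and -3.70 in females 1 to 4 and 1.45, 1.17, 1.07 and 1.23 in males 1 to 4. Every male stood more than 4 log2 units above every female, while the rats of 1 sex lay close together. The means were 1.23 ± 0.161 in males and -3.56 ± 0.220 in females (SD, n = 4 each). Expression in males was 27.6-fold higher (95% interval 22.6 to 33.9; log2 fold-change 4.79, SE 0.128, limma adjusted p = 3.34e-06), and the exact permutation p was 0.0286. Its unadjusted p ranked 1 among all 23425 probes tested, and its difference ranked 19 by size.

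Akr1c13, the next protein-coding gene on the chromosome, is another member of the Akr1c branch. Log2 levels of Akr1c13 were -3.23, -3.12, -2.99 and -2.75 in females 1 to 4 and -0.35, -0.75, -0.82 and -0.60 in males 1 to 4. The sexes were again widely apart, with little spread inside each. The means were -0.63 ± 0.208 in males and -3.02 ± 0.204 in females (SD, n = 4 each). Males were 5.24-fold higher (4.23 to 6.50; log2 fold-change 2.39, SE 0.135, limma adjusted p = 0.000208; exact permutation p = 0.0286). The sex difference of Akr1c12l1 exceeded that of its neighbour by 2.40 on the log2 scale (95% interval 2.02 to 2.78). That difference of differences, formed per rat, did not overlap between the sexes (exact permutation p = 0.0286, and 0.0286 after adjustment over the 3 pairs of related genes compared, which were picked with the values known). Which of the closely related Akr1c transcripts each probe binds was not tested, since probe sequences were not used here. In the GRCr8 table, Akr1c12 is listed as a synonym of Akr1c13 and Akr1c13 as a synonym of Akr1c12, so older sources may use either name for either gene. The probe is called Akr1c13 here because its transcript accession belongs to the gene with that symbol, and the probe of the gene now named Akr1c12 had a log2 fold-change of -0.03 (SE 0.177, limma adjusted p = 0.927).

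The stretches before the start of Akr1c12l1 and Akr1c13 are shown because the neighbours moved in the same direction to different extents and resemble each other there. Both are the 250 bases upstream of the transcription start in RefSeq (build GRCr8), from chr17:70847504-70847753 and chr17:70894386-70894635, both on the plus strand, written 5′ to 3′. Akr1c13 has several annotated transcripts, and the start used by the promoter table lies within the span of the gene. Capitals mark the bases that differ or have no partner in the alignment of the pair, 45 in each.
Akr1c12l1: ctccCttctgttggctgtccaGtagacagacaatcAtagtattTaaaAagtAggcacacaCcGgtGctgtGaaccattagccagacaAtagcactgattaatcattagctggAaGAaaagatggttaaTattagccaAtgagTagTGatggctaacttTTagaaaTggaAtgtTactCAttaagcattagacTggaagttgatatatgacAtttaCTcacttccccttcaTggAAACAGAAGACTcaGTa
Akr1c13: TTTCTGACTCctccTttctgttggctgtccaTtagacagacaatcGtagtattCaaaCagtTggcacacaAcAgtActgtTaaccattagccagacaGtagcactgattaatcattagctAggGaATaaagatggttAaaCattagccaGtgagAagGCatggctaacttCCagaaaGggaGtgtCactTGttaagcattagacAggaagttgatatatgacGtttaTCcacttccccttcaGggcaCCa
The pair shared 205 identical bases in 262 alignment columns (78.2%), with a longest common run of 22 bases. The other pairs among the 8 members with an entry in the promoter table shared 39.6% to 52.0% (median 45.0%).

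Akr1c14 is the classical 3α-hydroxysteroid dehydrogenase of rat liver, which reduces dihydrotestosterone to androstanediol. The log2 level of Akr1c14 was -6.85, -6.33, -6.76 and -6.48 in females 1 to 4 and -8.37, -7.30, -7.37 and -8.35 in males 1 to 4. All females stood above all males, but the signal was near the background: the probe was well above it on 4 female arrays and on 2 male arrays. Females were 2.36-fold higher (1.52 to 3.67; log2 fold-change -1.24, SE 0.277, limma adjusted p = 0.0332; exact permutation p = 0.0286). This call is weak, since it was lost in 11 of 18 other settings, among them quantile normalization and leaving out any 1 female, male 1 or male 4. Of the 5 liver markers, Apoa1 and Tat were well above background on 0 arrays, and 2 of the 3 that could be tested were higher in females. Ttr, transthyretin, had means of -1.94 in females and -7.47 in males and was 46.3-fold higher in females (limma adjusted p = 0.00127), with its probe well above background on 4 female and 2 male arrays. Fgb, a fibrinogen chain, had means of -1.46 and -2.81 and was 2.54-fold higher in females (limma adjusted p = 0.000353). Albumin (Alb) had means of -7.03 in females and -6.50 in males and overlapped. Their part in the value of Akr1c14 was not tested.

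The Akr1c cluster on chromosome 17 thus held genes that differed in opposite directions. In order along the chromosome (GRCr8), the genes are Akr1e2, Akr1c2, Akr1c1, Akr1c12l1, Akr1c13, Akr1c19, Akr1c12, Akr1c3, Akr1c14 and Akr1c15, with 1 other protein-coding gene between Akr1c1 and Akr1c12l1 and 0 elsewhere. Of the family genes outside the 9 members, 12 had a probe, 9 could be tested, and 1 of these passed both thresholds, in the female direction. That gene was Akr1c2, formerly listed as Akr1c21, with log2 levels of -5.72, -5.97, -6.22 and -6.88 in females 1 to 4 and -7.30, -7.82, -7.78 and -7.78 in males 1 to 4. All females were above all males, at a dim signal that was well above background on 4 female and 3 male arrays. Females were 2.77-fold higher (1.89 to 4.07; log2 fold-change -1.47, SE 0.242, limma adjusted p = 0.0102), but the difference fell short of 2-fold under normexp background correction (log2 fold-change -0.77). The other 8 tested family genes had log2 fold-changes between -0.19 and 0.31.

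**Figure D2:**
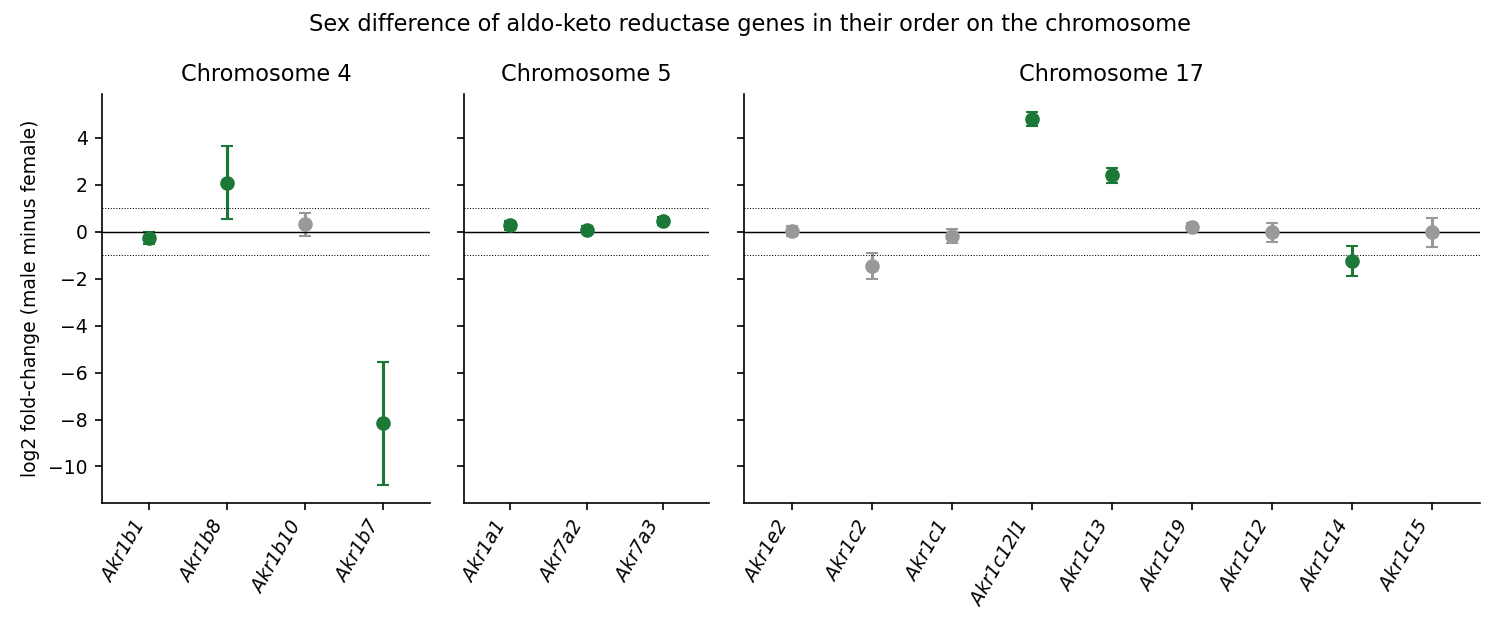
Log2 fold-change (male minus female) of the tested aldo-keto reductase genes on chromosomes 4, 5 and 17, in chromosomal order (horizontal axis, not to distance). Points are limma estimates with 95% intervals, green for the 9 members and grey for other family genes, and dotted lines mark a change of 2-fold; on chromosomes 4 and 17 genes above and below 0 lie in 1 cluster.

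Akr1b7, first known as the androgen-dependent protein of the mouse vas deferens, is abundant in the adrenal cortex, where it reduces isocaproaldehyde, the by-product of cholesterol side-chain cleavage. Its log2 level was 1.94, 2.29, 0.97 and -0.49 in females 1 to 4 and -6.97, -10.03, -6.70 and -4.24 in males 1 to 4. Every female was above every male, and both sexes were spread more widely than is usual on this array. Females spanned 6.90-fold, and 99.4% of the tested probes had a smaller SD in females. Males spanned 55.2-fold, and 99.95% of the tested probes had a smaller SD in males. The male span rests on male 2, at -10.03, where the probe was not well above background. Males 1, 3 and 4 lay between -6.97 and -4.24. The means were 1.18 ± 1.25 in females and -6.99 ± 2.37 in males (SD, n = 4 each). The log2 fold-change was -8.16 (SE 1.14, 95% interval -10.8 to -5.55, limma adjusted p = 0.00529, exact permutation p = 0.0286), which ranked 1 in size among the 23425 tested probes.

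Expressed as a ratio, Akr1b7 was 286-fold higher in females, with a 95% interval of 46.9 to 1748. The size of this ratio rests on the dim male signals. The probe was not well above background in male 2, and without that rat the ratio was 142-fold. Without male 4, the brightest male, it was 540-fold. It was 128-fold after normexp background correction, and the adjusted p was at most 0.0409 in all 18 other settings in which the probe was tested. Of the adrenal cortex markers, 6 had a probe. Those of Cyp11b1 and Star, which define steroid-making adrenal cells, were well above background on 0 arrays, that of Cyp11b2 on 2 female arrays and 0 of males, and that of Mc2r on 1 male array. Cyp21a1 and Cyp11a1 were well above background on all 8 arrays, with means of -2.97 in females and -3.40 in males for Cyp21a1 (1.35-fold higher in females, limma adjusted p = 0.210, ranges overlapping) and of -7.17 and -7.38 for Cyp11a1 (limma adjusted p = 0.609). The summed signal of the list was 0.107 to 0.184 in females and 0.0898 to 0.121 in males, and the part of adrenal RNA in the value of Akr1b7 was not tested.

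Akr1b8, a close relative of Akr1b7 that reduces aliphatic and aromatic aldehydes, had the higher mean in males. Females 1 to 4 had log2 levels of 1.08, 1.26, -0.41 and -1.96, and males 1 to 4 had 2.22, 2.67, 1.99 and 1.40. All males were above all females, and females 3 and 4 were far below females 1 and 2. The means were 2.07 ± 0.529 in males and -0.01 ± 1.5 in females (SD, n = 4 each). The log2 fold-change of 2.08 (SE 0.679, 95% interval 0.52 to 3.63) corresponds to 4.22-fold but did not pass the test across all probes (limma adjusted p = 0.103; exact permutation p = 0.0286). Without female 4 it was 1.42. The arrays of females 3 and 4 lay in 1 row of the slide and those of females 1 and 2 in the other. The log2 fold-change was 3.00 within the first row and 1.16 within the second, and with the row as a block the adjusted p was just under the threshold, at 0.049995.

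Adipose markers as a sum also separated these females. Their summed signal was 1.05, 0.665, 0.381 and 0.457 in females 1 to 4 and 0.384, 0.361, 0.382 and 0.528 in males 1 to 4, so that females 1 and 2 were the highest of all rats and male 4 the highest male. All 5 of the markers with a probe were tested, and 0 passed both thresholds between the sexes. Among them, Fabp4 stood at -3.18, -5.03, -8.13 and -8.15 and Cfd at -1.82, -3.52, -5.38 and -4.51 in females 1 to 4. Adipoq stood at -0.79, -1.03, -1.72 and -1.37 and Cidec at -3.72, -4.26, -4.45 and -5.83 in the same females. Lep did not follow this order, at -7.76, -7.98, -8.09 and -7.60. The highest male was male 4 for Fabp4 and Adipoq, male 3 for Cfd, and male 1 for Cidec and Lep. The part of adipose tissue in the spread of Akr1b7 and Akr1b8 was not tested.

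The sex differences of Akr1b7 and Akr1b8 were far apart (difference of the log2 fold-changes -10.24, 95% interval -13.8 to -6.68). The exact permutation p of 0.0286 adds nothing here. Each gene alone separated the sexes, in opposite directions, so their difference had to separate them too. Adjustment over the 3 pairs left it at 0.0286, since every pair had this smallest p. Within females, both genes were highest in female 2, followed by females 1, 3 and 4, an order held by 6.82% of all tested probes. Within males, Akr1b8 had the order 2, 1, 3, 4, and Akr1b7 had the reverse order 4, 3, 1, 2. These orders were held by 6.69% and 2.12% of tested probes. The order is a description of 4 rats a sex, and the lowest value of Akr1b7, in male 2, was not well above background. Akr1b7 differed by -5.84 within the first slide row and by -10.48 within the second, so females were higher in both.

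**Figure D3:**
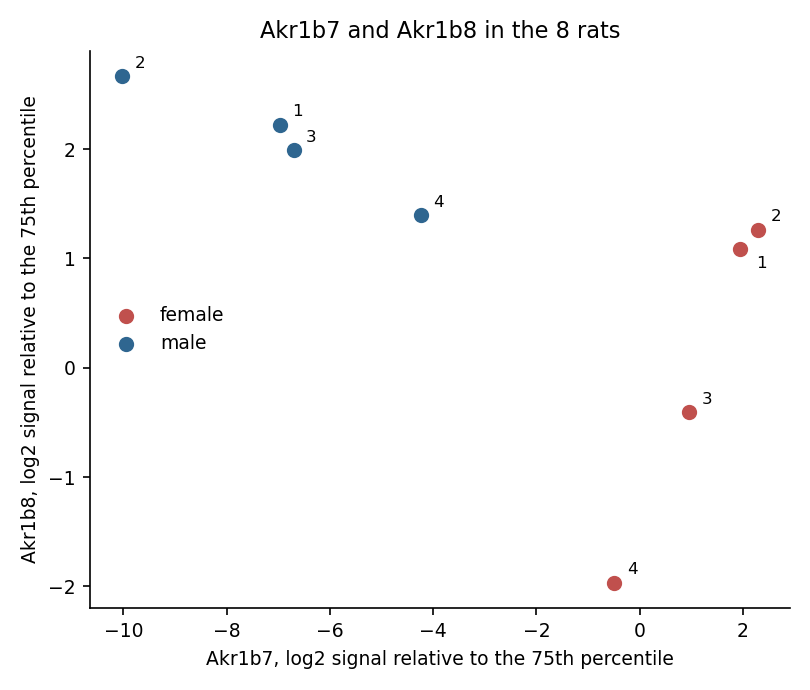
Log2 signals relative to the 75th percentile of the array for Akr1b7 (horizontal axis) and Akr1b8 (vertical axis). Each point is 1 rat, red for females and blue for males, numbered by replicate; females run from low in both to high in both, and males run from low Akr1b7 with high Akr1b8 to higher Akr1b7 with lower Akr1b8.

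The upstream sequences of Akr1b7 and Akr1b8 are shown because the sex differences of these genes of 1 cluster had opposite signs, although that of Akr1b8 did not pass the test across all probes. They are the 250 bases before the RefSeq transcription start (GRCr8), from chr4:64043720-64043969 and chr4:63964171-63964420, both on the plus strand, written 5′ to 3′, and capitals mark matches to the motifs searched.
Akr1b7: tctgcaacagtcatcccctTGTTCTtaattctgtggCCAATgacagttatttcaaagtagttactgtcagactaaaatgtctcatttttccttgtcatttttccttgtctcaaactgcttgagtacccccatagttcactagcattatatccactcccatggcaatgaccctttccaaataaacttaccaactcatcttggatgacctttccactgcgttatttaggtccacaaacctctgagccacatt
Akr1b8: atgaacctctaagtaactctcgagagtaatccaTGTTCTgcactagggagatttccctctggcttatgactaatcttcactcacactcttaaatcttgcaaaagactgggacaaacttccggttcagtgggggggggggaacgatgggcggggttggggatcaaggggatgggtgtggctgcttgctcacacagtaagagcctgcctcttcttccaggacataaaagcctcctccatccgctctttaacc
Both held TGTTCT, the half-site of the androgen response element, 231 to 226 bases before the start in Akr1b7 and 217 to 212 bases before it in Akr1b8. This half-site, on either strand, is present in 17.5% of 33469 rat promoters of the same length, and Akr7a3 was the only other member with a match. The full androgen response element, of which the half-site is part, occurred in none of the 8 members and in 0.00299% of all promoters. The BCL6 motifs TTCCTAGAA and TTCCTCGAA were likewise found in no member (0.323% and 0.0538% of all promoters). The STAT5 motif TTCNNNGAA, which includes both BCL6 motifs, occurred in Akr1c12l1 alone, as TTCATGGAA 24 to 16 bases before the start (7.67% of all promoters). The motif TGACNNNGC, the core of the antioxidant response element, was in no member (10.1%), nor was TATAAA (12.9%). CCAAT was found in Akr1b7, Akr1c12l1 and Akr1c14 (34%). Both strands were searched throughout, and a match of letters is no evidence of binding.

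Akr1b1, aldose reductase, converts glucose to sorbitol, an osmolyte of the renal medulla. It lies in the same cluster on chromosome 4, in the order Akr1b1, Akr1b8, Akr1b10 and Akr1b7 with 0 other protein-coding genes between them. Aldose reductase had log2 levels of -1.08, -0.77, -1.09 and -1.08 in females 1 to 4 and -1.29, -1.08, -1.50 and -1.22 in males 1 to 4. The sexes overlapped, and female 2 stood above the other 7 rats. The log2 fold-change was -0.27 (SE 0.113, 95% interval -0.52 to -0.01, limma adjusted p = 0.183; exact permutation p = 0.114). None of the 4 tested genes of the list of osmolyte response passed both thresholds.

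Akr1a1, aldehyde reductase, turns glucuronate into gulonate on the route by which rats make ascorbate. Its log2 level was 4.96, 4.72, 4.97 and 4.88 in females 1 to 4 and 5.10, 5.27, 5.04 and 5.16 in males 1 to 4. All males were slightly above all females. The difference was 1.20-fold (log2 fold-change 0.26, SE 0.0839, 95% interval 0.07 to 0.45). It did not pass the test across all probes (limma adjusted p = 0.0990, exact permutation p = 0.0286). This outcome depended on the scaling. Below 2-fold, Akr1a1 passed the adjusted p with quantile normalization (0.39, limma adjusted p = 0.0370) and with the authors' log2 values (0.36, 0.0456). The same held for normexp correction with quantile normalization (0.38, 0.0311), but for none of the other settings.

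The Akr7 branch comprises reductases of dicarbonyls. Akr7a3, the aflatoxin aldehyde reductase, had log2 levels of 4.62, 4.39, 4.36 and 4.45 in females 1 to 4 and 4.95, 4.87, 4.98 and 4.85 in males 1 to 4. All males were above all females with a narrow spread in both. The mean was 4.91 ± 0.0611 in males and 4.46 ± 0.113 in females (SD, n = 4 each). It was 1.37-fold higher in males (log2 fold-change 0.46, SE 0.0769, 95% interval 0.28 to 0.63), which passed the adjusted p (0.0109, limma) but not the 2-fold threshold. Akr7a2, the adjacent gene, which reduces succinic semialdehyde, had log2 levels of 3.85, 3.73, 3.88 and 3.81 in females 1 to 4 and 3.85, 3.98, 3.86 and 3.89 in males 1 to 4. The sexes overlapped, with a log2 fold-change of 0.08 (SE 0.0663, 95% interval -0.08 to 0.23, limma adjusted p = 0.526; exact permutation p = 0.143). The sex difference of Akr7a3 exceeded that of Akr7a2 by 0.38 (95% interval 0.186 to 0.577, exact permutation p = 0.0286). Adjustment over the 3 pairs could not change this p, since every pair had the smallest p possible. The pairs were picked with the values known.

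Within the rows of the slide, each holding 2 rats of each sex, the remaining members kept their direction. The log2 fold-change was 4.89 and 4.68 for Akr1c12l1, 2.39 and 2.39 for Akr1c13, -1.74 and -0.75 for Akr1c14, and 0.49 and 0.42 for Akr7a3. It was 0.20 and 0.32 for Akr1a1, -0.17 and -0.36 for Akr1b1, and 0.02 and 0.13 for Akr7a2. For Akr1c14 the difference within the second row was thus below 2-fold. Males 1 and 4, the dimmest for that gene, lay in the first row, and males 2 and 3 in the second.

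**Figure D4:**
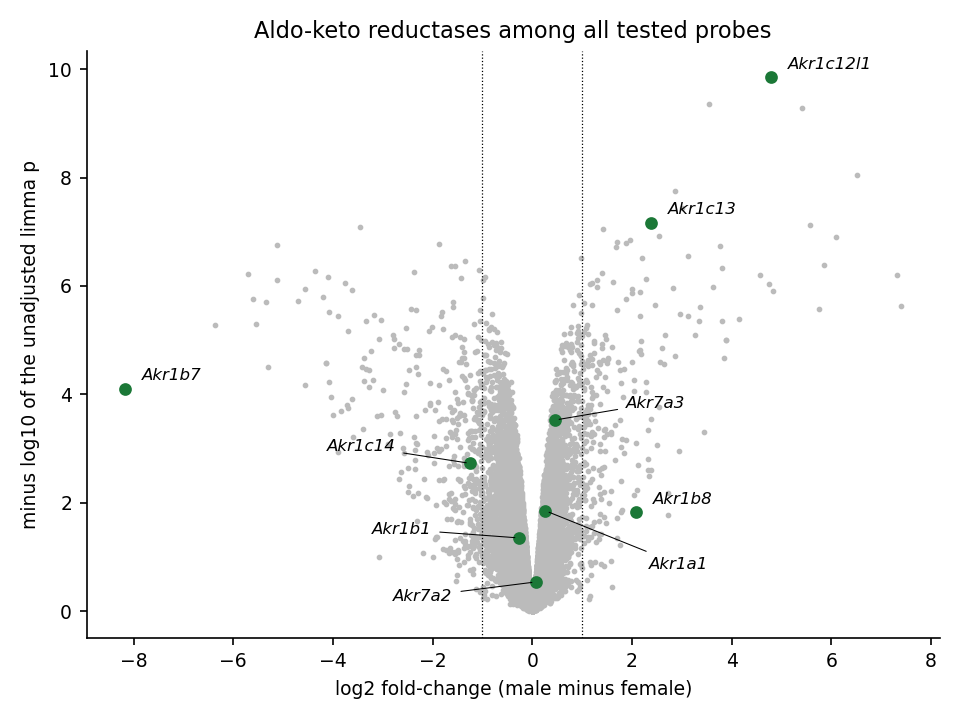
Log2 fold-change (male minus female, horizontal axis) against minus log10 of the unadjusted limma p (vertical axis) of the 23425 tested probes in grey, with the 9 aldo-keto reductases in green and dotted lines at a change of 2-fold. Akr1b7 lies farthest from 0 and Akr1c12l1 has the smallest p.

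Genes that share substrates or pathways with the aldo-keto reductases were examined by list. The counts that passed both thresholds stand beside 1.89% of all tested probes in either direction. The lists were chosen with earlier results known, so these counts are descriptions. In glucuronate, xylulose and polyol metabolism, 1 of 9 tested genes passed both thresholds, in the male direction, and the median log2 fold-change was 0.16. It was Rgn, regucalcin, the lactonase of ascorbate synthesis, which was 2.72-fold higher in males (log2 fold-change 1.45, SE 0.271, limma adjusted p = 0.0172). Among other carbonyl and enone reductases, 1 of 7 tested genes passed both thresholds, in the female direction, and the median was -0.17. It was Cbr1, carbonyl reductase 1, which acts on prostaglandins, quinones and other carbonyl compounds. Its log2 level was 2.37, 3.04, 1.76 and 1.76 in females 1 to 4 and 0.71, 0.42, 0.71 and 0.65 in males 1 to 4, so that females 1 and 2 were the brightest. Females were 3.06-fold higher (log2 fold-change -1.62, SE 0.272, limma adjusted p = 0.0109).

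In prostaglandin metabolism, 1 of 10 tested genes passed both thresholds, in the male direction (median -0.08). It was Ptgds, a prostaglandin D synthase, 4.47-fold higher in males (log2 fold-change 2.16, SE 0.201, limma adjusted p = 0.00101). Among the 3-ketosteroid partners, which make or remove the steroids that Akr1c enzymes act on, 1 of 7 tested genes passed both thresholds, in the male direction (median -0.10). It was Hsd17b1, which in rat reduces both oestrone to oestradiol and androstenedione to testosterone. Its level was 2.86-fold higher in males (log2 fold-change 1.52, SE 0.177, limma adjusted p = 0.00251). Hsd17b2, which oxidises oestradiol and testosterone, went the other way at less than 2-fold: it was 1.90-fold higher in females (log2 fold-change -0.93, SE 0.121, limma adjusted p = 0.00407), with all females above all males. The adjusted p alone was also passed by Ugdh (log2 fold-change 0.54) of glucuronate metabolism and by Hpgd (0.95) and Ptgis (-0.58) of prostaglandin metabolism. These 4 genes below 2-fold were named after their values were seen. Of the targets and regulators of NRF2, the factor through which electrophiles raise Akr transcription, 0 of 13 tested genes passed in either direction (median 0.03). Nqo1 narrowly missed the adjusted p. It was 2.15-fold higher in females (log2 fold-change -1.10, limma adjusted p = 0.0519), with all females above all males. Ephx1 (1.40-fold higher in males, limma adjusted p = 0.0521) and Keap1 (1.20-fold higher in females, 0.0544) also missed it narrowly. They were likewise named after their values were seen.

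The profiles most like those of the 3 members with the largest differences were sought among 13996 named probes, by the root mean square difference of mean-centred log2 values over the 8 arrays. For Akr1b7 they were Adh6 (1.51 log2 units), Slc22a13 (1.70) and Serpina10 (2.0). Adh6, an alcohol dehydrogenase, had log2 levels of 1.14, 1.67, -0.01 and -0.65 in females 1 to 4, the same order of females as Akr1b7, and -5.66, -6.15, -6.94 and -4.55 in males 1 to 4. That female order was held by 6.82% of all tested probes. Male 4 was the brightest male for both genes, but the order of the other males differed. The dimmest was male 3 for Adh6 and male 2 for Akr1b7. For Akr1c12l1 the most alike were Btg1b (0.475), Mlc1 (0.589) and Gc (0.692), the vitamin D binding protein. For Akr1c13 they were Bcl2l15 (0.143), Dnm3 (0.178) and Cnnm1 (0.247). Any probe with a sex difference of similar size scores well on this measure.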

How the data were processed

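Total RNA of cortical kidney slices from 4 male and 4 female rats was measured on 8 one-colour Agilent rat arrays designed on the genome build rn4, per the file headers. The authors deposited the background-subtracted signal intensity of each spot from Feature Extraction 10.7.3.1, without normalization between arrays, and a table of log2 values that share 1 distribution across arrays. The processing notes of the submitters name limma 3.8.2.

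From the deposited intensity values, spots marked as outliers were dropped, each log2 signal was set relative to the 75th percentile of its array, and a probe was given the mean of its spots. Probes well above background (more than 50% of their spots marked so) on at least 4 of 8 arrays, 23425 in all, were fitted as male minus female with limma 3.58.1 in R 4.3.3, with Benjamini-Hochberg adjustment over all of them. A probe was called when its adjusted p was below 0.05 and its log2 fold-change was 1 or more in size. For single probes and pairs of genes, exact permutation tests (two-sided) were run as well, and the 95% interval of a pair came from a linear model of the per-rat differences. In simulated data of 23425 probes, the fit found 95% of 200 probes that had been given a log2 change of 2 and made 2 false calls. Gene names came from the RefSeq accessions of the probes matched to the GRCr8 gene table, and 17514 probes were named. Upstream sequences were taken from the RefSeq promoter table (GRCr8), which held 8 of the 9 members, Akr1b1 being the one without an entry. They were aligned with Biopython 1.88. Figures were drawn with matplotlib 3.10.9.

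The members, gene lists and marker lists were chosen with earlier results of these data known. Genes were named by rule: all probes of the members, genes of the related lists that passed both thresholds, and the 3 most alike named genes for the 3 members with the largest differences. P-values measure the spread between rats of 1 strain, 1 slice each. The array fit was repeated with quantile normalization, the authors' log2 values, normexp correction of the median spot signal (offset 16) alone and with quantile normalization, no dim filter, a filter on all 8 arrays, outlier spots kept, array weights, a robust prior with an intensity trend, a block for the slide row, a block for the replicate number, each array left out, and, for the count over all probes, unadjusted p. Real-time PCR and reporter assays were not analysed here.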

Additional observations from a re-analysis of the deposited data

Results flagged for a closer look

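Among 28 sets of 4 rats (14 named genes in each sex), 2 held a value far from the other 3 by Dixon's criterion, where chance alone gives about 1 in 20, or 1.4 sets. For Akr1b1, female 2 stood at -0.77 (log2 relative to the 75th percentile) and the other females between -1.09 and -1.08. For Akr1c2, male 1 stood at -7.30 and the other males between -7.82 and -7.78.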

How the results depend on the processing

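Akr1c12l1 (log2 fold-change 4.64 to 4.86), Akr1c13 (2.30 to 2.48) and Akr1b7 (-9.08 to -6.96) passed both thresholds in every alternative in which they were tested. No gene followed across these alternatives changed direction. The number of members higher in females was 2 in the reported fit. It was 1, without Akr1c14, with quantile normalization, with the authors' log2 values, with normexp correction, with normexp correction and quantile normalization, and with no dim filter, and it was 0 with the filter on all 8 arrays, which leaves Akr1b7 and Akr1c14 untested. Leaving out 1 array gave 1 to 2, the lower number without any of the 4 females, male 1 or male 4. Akr1c14 ranged from -1.43 to -0.54 with adjusted p from 0.0206 to 0.0888. The number higher in males was 2 throughout, and 3 with the slide row as a block, where Akr1b8 passed. The replicate numbers did not pair the rats (correlations of deviations 0.0193 to 0.138, not every rat correlating best with its own number). With the replicate block, 165 probes passed in the male and 207 in the female direction, against 187 and 256 without it, and 2 members in each direction. Rgn missed the adjusted p without female 2 (0.0504), and Akr1c2 fell short of 2-fold with normexp correction (-0.77, and -0.66 with quantile normalization). Each member had 1 probe, so the mean over probes of a gene gave the same values. Over all probes, counts ranged from 137 to 235 in males and 174 to 356 in females. Dim signal limits Akr1b7 in males, Akr1c14 and Akr1c2.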
